A study of Mus musculus with 9 samples.

Results

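The levels of 9 chemosensory cell markers were followed in RNA immunoprecipitated from the olfactory epithelium (OE) of mice that had smelled heptanal for 1 hr. The 9 genes, of 23607 gene symbols in the count tables, were taken by name, as known markers. No threshold on a measured value chose them, but earlier results of these data were known when they were listed. They fall into 5 genes of tuft-like, Trpm5-positive microvillous cells (Pou2f3, Trpm5, Gnat3, Chat and Avil) and 4 genes of ionocyte-like microvillous cells (Ascl3, Foxi1, Cftr and Coch). All 9 symbols had a row in each table, and 7 of them had enough reads to be tested (Gnat3 and Chat did not).

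The study asked which olfactory sensory neurons (OSNs) respond to an odorant in the living animal. Phosphorylation of ribosomal protein S6 marks recently active neurons, so an antibody to phosphorylated S6 (pS6) pulls down the mRNAs being translated in them (pS6-IP), and those mRNAs were sequenced. A set of 9 C57BL/6 mice without any transgene named in the labels were used, 3 per group, and each gave 1 library from its OE. Control mice received distilled water, and the others received 1% or 100% heptanal, an aldehyde odorant, for the same 1 hr. Each group held 1 mouse of postnatal day 22, 1 of day 21 and 1 of day 18, and the methods state that the mice of one replication were littermates of the same sex, so age, litter and sex cannot be told apart. The precipitate is a bulk sample enriched for active cells, in which fewer cells of a type and less RNA per cell cannot be told apart. Libraries from the same tissue without immunoprecipitation were not analysed here, so the values are levels in the precipitate and not enrichments.

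Microvillous cells are a minor, non-neuronal population of the OE. Those that resemble tuft cells of the gut and airway depend on the POU-domain transcription factor Pou2f3, carry the taste-type cation channel Trpm5 and can release acetylcholine, whereas those that resemble airway ionocytes depend on the forkhead factor Foxi1, express the bHLH factor Ascl3 and carry ion transporters such as the chloride channel Cftr. Tuft-like cells respond to irritants and bacterial compounds, and ionocytes are thought to set the salt and water content of the surface fluid.

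No member changed past the threshold in any heptanal comparison. Pou2f3 had the largest difference among the members that was the same in every litter: 1.89-fold higher at 100% heptanal than in controls (95% CI 1.21 to 2.94, 3 mice against 3), with an adjusted p of 0.295 by edgeR's quasi-likelihood test. Foxi1 was lower at 100% than at 1% heptanal in all 3 litters (1.54-fold, adjusted p = 0.408). Between litters Foxi1 and Coch passed the threshold, 2 of the 7 members tested (28.6%), a share close to that of all genes tested (27.0%). Over all genes tested (14930), 48 were called at 100% heptanal against control (0.322%), all of them higher (1 to 65 with 1 mouse left out, the lowest without the control of day 22), 12 at 100% against 1% (0.0804%) and 0 at 1% against control (0%, and 3 genes by DESeq2).

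The libraries held between 5438494 and 9707592 estimated counts (median 7305895). Values below are CPM, read counts scaled to library size after TMM normalisation, with standard deviations over the 3 mice of a group. A count of 0 allows up to 3 counts, which is 0.295 to 0.520 CPM in these libraries, and this limit covers counting error only. The 3 libraries of day 22 stood apart from the other 6 by base composition: genes under 40% GC had a median log2 difference of -1.29 between day 22 and the other days (458 genes), against 0.24 for genes of 55 to 60% GC (2916 genes). Litter differences of the members and of the related gene lists are given with and without a correction for GC. Composition also differed within day 21, where the deviation of each library from the mean of the 9 correlated with GC across 13920 genes at r = -0.32 (control), 0.11 (1%) and -0.36 (100%), so it enters the heptanal comparisons as well. With the correction no member was called in any of them.

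**Figure D1:**
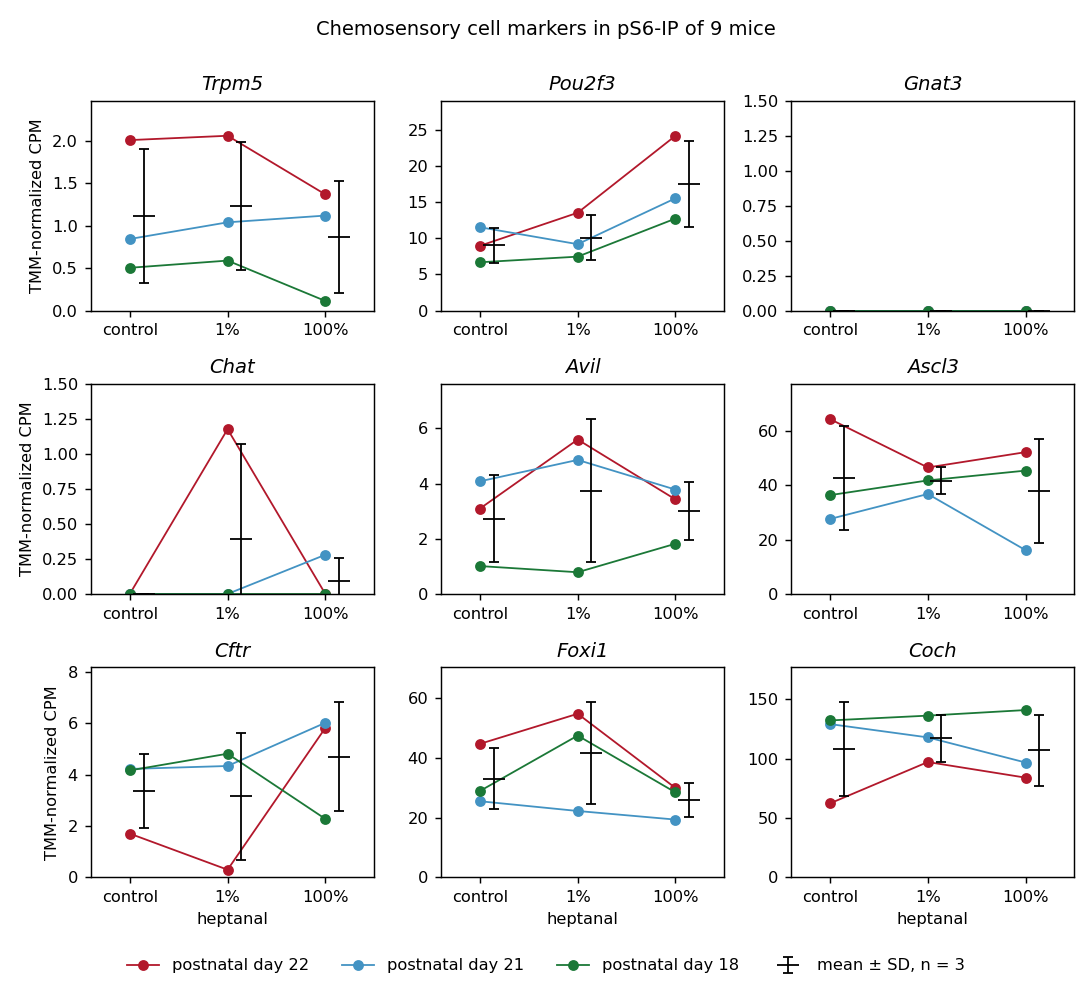
TMM-normalised CPM of each of the 9 members (vertical axes from 0, one scale per gene) in control mice and after 1% or 100% heptanal. Points are single mice, lines join mice of the same postnatal day, and black bars are the mean ± SD of 3 mice. Pou2f3 was the only member whose 100% values (12.7 to 24.2 CPM) all lay above its control values (6.69 to 11.5 CPM), and Gnat3 was at 0 in every mouse.

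Among the tuft-like genes, Pou2f3 encodes the transcription factor that specifies the lineage. It lies on the minus strand of chromosome 9 (mm10, chr9:43123927-43205755). Its level was 8.97, 11.5 and 6.69 CPM in the control mice of days 22, 21 and 18, 13.5, 9.19 and 7.47 CPM after 1% heptanal, and 24.2, 15.5 and 12.7 CPM after 100% heptanal. The 3 mice given 100% heptanal were the highest of their litters, and their values did not overlap those of the controls, while the 1% mice lay among the controls or just above them. Group means were 9.07 ± 2.43, 10.1 ± 3.13 and 17.5 ± 5.98 CPM (SD, n = 3 each).

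Within litters, Pou2f3 at 100% heptanal was 2.70, 1.35 and 1.90 times its control on days 22, 21 and 18 (18.4% of all genes were higher in all 3 litters). The log2 fold change in the fit across all genes was 0.91 (SE 0.28, unadjusted p = 0.0104, adjusted p = 0.295). Of all genes tested, 10.4% had an unadjusted p under 0.05 in that comparison and 5.96% lay, like Pou2f3, without overlap above the controls. Against 1% heptanal Pou2f3 was 1.73-fold higher (95% CI 1.11 to 2.68, adjusted p = 0.410), and at 1% against control it was 1.09-fold (95% CI 0.698 to 1.71, adjusted p = 1.00).

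Several measurements stand beside the Pou2f3 difference. Summed CPM of 5 mature OSN genes was 4231 to 8701 in controls, 6146 to 8468 at 1% and 10542 to 14870 at 100% heptanal. None of these genes was at 0. The sums of the 100% mice lay above those of the controls, as did the single genes Omp and Cnga2. Adcy3, Gnal and Ano2 overlapped the controls. Omp made up most of the sum (3293 to 6502 CPM in controls), so scaling to these genes rests mostly on Omp. When libraries were scaled to those OSN genes, the log2 fold change of Pou2f3 at 100% against control was -0.11, and the median of all genes moved to -1.04. This scaling shifts all genes together, so the distance of Pou2f3 from that median (0.93) could hardly change. In the main fit Pou2f3 was at 0.91 and the median at -0.0022. The part of OSN content in the difference was not tested further. Of the Pou2f3 counts, 26.0% were reads with more than one possible origin that the authors' counting had assigned by its rescue step, and on uniquely mapped reads alone the log2 fold change was 1.07 (adjusted p = 0.250). Without the litter of day 22 it was 0.66 (adjusted p = 0.741).

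Trpm5, the calcium-activated cation channel of taste and tuft cells (chromosome 7, chr7:143071529-143094642, minus strand), was near the limit of detection. The control mice of days 22, 21 and 18 held 13, 6 and 4 counts, the 1% mice 14, 6 and 6, and the 100% mice 12, 8 and 1. The groups overlapped throughout, at 1.12 ± 0.790, 1.23 ± 0.754 and 0.868 ± 0.665 CPM (SD, n = 3 each). Values fell into the order of the litters: 1.37 to 2.06 CPM on day 22, 0.844 to 1.12 on day 21 and 0.114 to 0.590 on day 18. They rest on 1 to 14 counts per mouse, and the edgeR test across litters did not pass (adjusted p = 0.147). The share of all genes with litters apart in this way was not counted. At 100% against control the log2 fold change was -0.47 with a 95% CI of -2.25 to 1.30, an interval that covers both a large fall and a large rise.

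Gnat3 (chr5:17962570-18019668, plus strand) encodes gustducin, the taste-type G protein alpha subunit. It had 0 counts in all 9 mice. Chat (chr14:32408203-32465909, minus strand) encodes the enzyme that makes acetylcholine, and it had 8 counts in the 1% mouse of day 22, 2 counts in the 100% mouse of day 21 and 0 in the other 7. The Chat counts sit in 1 mouse of each heptanal group and in no control, and neither gene has a fold change here. Slc18a3, the vesicular acetylcholine transporter gene that lies inside the Chat locus, was at 0 in all 9 mice.

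Avil, an actin-binding protein of the villin family found in tuft cells (chr10:127000065-127020994, plus strand), was measured at 3.09, 4.08 and 1.01 CPM in controls of days 22, 21 and 18, at 5.60, 4.86 and 0.786 CPM after 1%, and at 3.42, 3.78 and 1.82 CPM after 100% heptanal. All 3 mice of day 18 lay below the other 6, whichever odour they had received, but the edgeR test across litters did not pass (adjusted p = 0.0745). The share of all genes with 1 litter apart from the other 6 was not counted, for Avil or for the members below. Group means of 2.73 ± 1.57, 3.75 ± 2.59 and 3.01 ± 1.04 CPM overlapped. The log2 fold change was 0.33 at 1% (adjusted p = 1.00) and 0.30 at 100% heptanal against control (adjusted p = 0.907), and the sign of the latter changed when 1 mouse was left out (-0.12 to 0.52).

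Ascl3 encodes a bHLH transcription factor of ionocyte-like cells (chr7:109727465-109731732, minus strand). Per length of transcript it was the most abundant member, although Coch had higher group means in CPM. Ascl3 was measured at 64.3, 27.6 and 36.3 CPM in the controls of days 22, 21 and 18, at 46.5, 36.8 and 41.8 CPM after 1%, and at 52.2, 16.1 and 45.4 CPM after 100% heptanal. The groups overlapped (42.8 ± 19.2, 41.7 ± 4.88 and 37.9 ± 19.2 CPM). All 3 mice of day 22 were above the other 6, but the edgeR test across litters did not pass (adjusted p = 0.0552). The log2 fold change at 100% against control was -0.21 (95% CI -0.85 to 0.42, adjusted p = 0.850).

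Foxi1, the forkhead factor that specifies ionocytes (chr11:34204341-34208089, minus strand), was measured at 44.7, 25.5 and 28.9 CPM in controls, at 54.8, 22.2 and 47.5 CPM after 1%, and at 29.9, 19.3 and 28.4 CPM after 100% heptanal, again for days 22, 21 and 18. The 100% mouse had the lowest value of each litter, by a small margin on day 18, and group ranges overlapped. The share of all genes lowest at 100% in every litter was not counted. At 100% against 1% heptanal the log2 fold change was -0.62 (SE 0.22, 95% CI -1.11 to -0.13, unadjusted p = 0.0182, adjusted p = 0.408). In that comparison 10.4% of all genes had an unadjusted p under 0.05, and 15.5% were lower in all 3 litters. Against control it was -0.34 (SE 0.22, adjusted p = 0.639), and at 1% against control 0.28 (adjusted p = 1.00).

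Cftr, the chloride channel of ionocytes (chr6:18170687-18322770, plus strand), had few reads: 11, 30 and 33 counts in the controls of days 22, 21 and 18, 2, 25 and 49 after 1%, and 51, 43 and 20 after 100% heptanal. Within litters the 100% value was 3.42, 1.43 and 0.546 times the control, so the litters differed in direction. The interval of the log2 fold change was accordingly wide (0.70, 95% CI -1.12 to 2.52, adjusted p = 0.821), and without the litter of day 22 the value was -0.11.

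Coch, which encodes the secreted matrix protein cochlin (chr12:51593283-51606619, plus strand), varied least of the members tested over the 9 mice (coefficient of variation 24.4%). It was measured at 62.3, 129 and 132 CPM in controls, at 97.2, 118 and 136 CPM after 1%, and at 84.0, 96.8 and 141 CPM after 100% heptanal. All 3 mice of day 18 lay above every mouse of the other days, whereas the groups overlapped (108 ± 39.5, 117 ± 19.6 and 107 ± 29.9 CPM). Its log2 fold change at 100% against control was 0.02 with a 95% CI of -0.39 to 0.44 (adjusted p = 0.984), the narrowest interval among the 7 members tested.

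**Figure D2:**
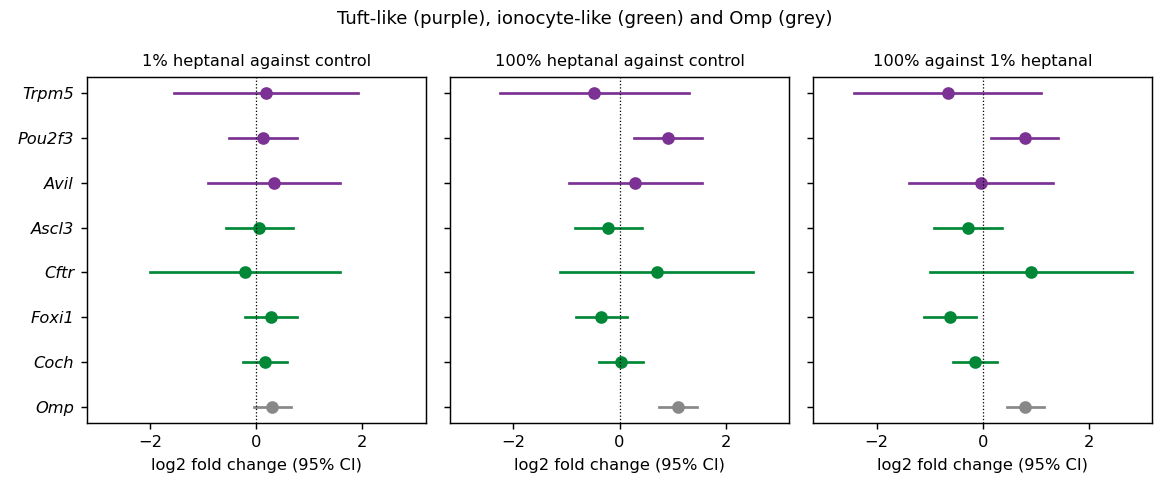
Log2 fold changes (points) with 95% confidence intervals (lines) of the 7 members tested and of Omp, a mature OSN gene, for the 3 comparisons, fitted with postnatal day as a block. The interval of Pou2f3 lay above 0 in both comparisons of 100% heptanal and that of Foxi1 below 0 at 100% against 1% only, before adjustment over all genes. Scaling to mature OSN genes moved Pou2f3 at 100% against control to -0.11 and the median of all genes to -1.04.

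Counted together, the 7 members tested gave 0 calls of 7 at 1% heptanal against control, 0 of 7 at 100% against control and 0 of 7 at 100% against 1%. At 1% heptanal, 487 of all genes (3.26%) had an unadjusted p under 0.05, and no member was among them. The median log2 fold change of the 7 members was 0.02 at 100% against control, beside -0.0022 over all genes. The tuft-like members tested had a median of 0.30 (3 genes) and the ionocyte-like members one of -0.10 (4 genes). Scaling to mature OSN genes is the 1 alternative that called members at 100% against control: Ascl3 (log2 fold change -1.26), Foxi1 (-1.36) and Coch (-1.01), where the median of all genes was -1.04 and 9694 of 14930 genes were called lower.

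Levels of different genes were compared per length of transcript, as CPM per kb of exon, a scale that assumes even coverage along the transcript. On that scale the order over the 9 mice was Ascl3 (57.8 ± 19.8), Coch (41.3 ± 10.1), Foxi1 (14.2 ± 5.26), Pou2f3 (4.84 ± 2.13), Avil (1.04 ± 0.549), Cftr (0.593 ± 0.305), Trpm5 (0.245 ± 0.150) and Chat (0.0577), with Gnat3 at 0. For comparison, Omp of mature OSNs stood at 3257 CPM per kb, Cyp2g1 of sustentacular cells at 444 and Foxj1 of ciliated cells at 30.6. Neighbours in the order overlapped in range except for Pou2f3 and Avil. Ascl3 was above Coch in 7 of 9 mice, and Coch above Foxi1 and Foxi1 above Pou2f3 in 9 of 9. The cDNA was primed at the poly-A tail and amplified by PCR before library construction, and how far that departs from even coverage along the transcript was not tested.

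**Figure D3:**
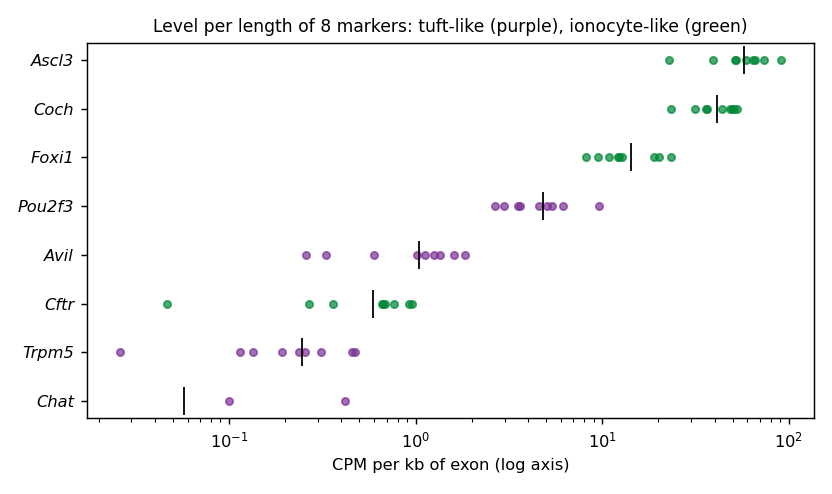
Level per length (CPM per kb of exon, logarithmic axis) of the 8 members with any count. Points are single mice above 0 and vertical ticks are means over all 9 mice. Transcripts of the ionocyte-like genes Ascl3, Coch and Foxi1 lay above those of every tuft-like gene in the mean. The ionocyte-like gene Cftr (0.593) lay below the tuft-like genes Pou2f3 (4.84) and Avil (1.04). Only the ranges of Pou2f3 and Avil, among neighbours, did not overlap.

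With the correction for GC, 1 of the 7 members was called between litters, beside 29.1% of the 13920 genes of known GC content. Before it, Foxi1 averaged 43.1 ± 12.5 CPM on day 22, 22.3 ± 3.07 on day 21 and 34.9 ± 10.9 on day 18 (SD, n = 3, edgeR adjusted p = 0.0349), and all 3 mice of day 21 lay below the other 6. Coch averaged 81.2 ± 17.6, 115 ± 16.5 and 137 ± 4.38 CPM on those days (adjusted p = 0.0350). Ascl3 came next, at 54.3 ± 9.10, 26.8 ± 10.4 and 41.2 ± 4.54 CPM (adjusted p = 0.0552), in the same order of days as Foxi1. It was called by DESeq2 (0.0122), by the likelihood ratio test (0.0129), with OSN scaling (0.00544), without the low-count filter (0.0405) and without the 1% mouse of day 22 (0.0404) or of day 21 (0.0223). Avil (0.0745), Trpm5 (0.147), Pou2f3 (0.151) and Cftr (0.531) had higher adjusted p.

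Both calls rest on few mice. Foxi1 lost its call without the control or the 1% mouse of day 22, without any 1 of the 3 mice of day 21, or without the 100% mouse of day 18 (adjusted p 0.0630 to 0.126). Coch lost its call without any 1 mouse of day 22 or of day 18 (0.0503 to 0.137) and kept it without any 1 mouse of day 21. With the correction for GC content, Foxi1 remained called (adjusted p = 0.0386) and Coch did not (0.427), and without the litter of day 22 neither was called (0.204 and 0.395). Red blood cell genes also differed between litters. The 6 globin symbols held 3 distinct sets of counts, since the symbols had equal values in pairs in every mouse. All 3 sets were called, with or without the GC correction. Their sum, each counted once, was 714 to 1171 CPM on day 18 against 3869 to 8379 CPM on days 21 and 22. Their part in the member differences was not tested.

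**Figure D4:**
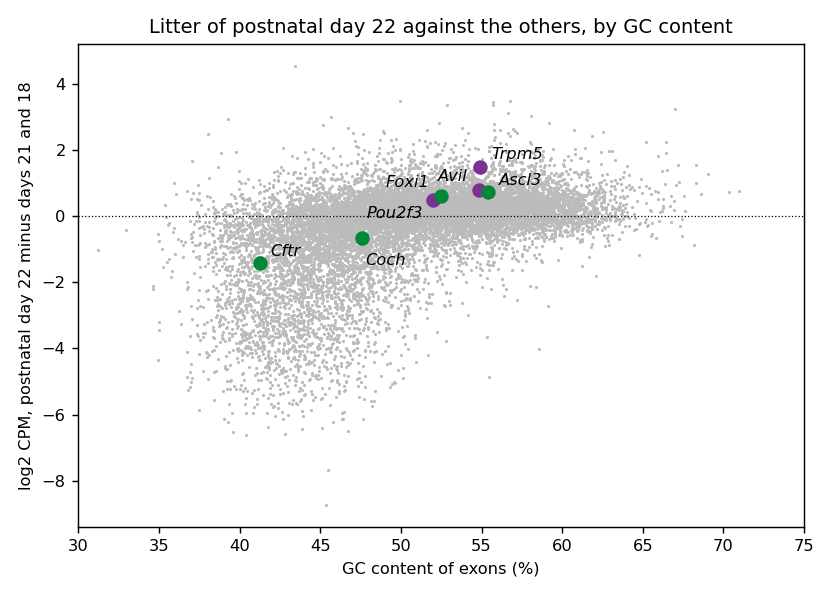
Difference in log2 CPM between the litter of day 22 and the other litters (vertical axis) against the GC content of each gene's exons (horizontal axis, percent), for genes tested (grey), tuft-like members (purple) and ionocyte-like members (green). Cftr (41.2% GC) was at -1.42 and Coch (47.6% GC) at -0.64, while the 5 members of 52.0 to 55.4% GC were between 0.51 and 1.51.

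On the plot of litter difference against GC content, the members had the direction of all genes of like base composition, but not the size. Medians of all genes were -1.06 at 40 to 45% GC, -0.20 at 45 to 50%, 0.18 at 50 to 55% and 0.24 at 55 to 60%. Each member lay beyond the median of its own GC range. Cftr and Coch, the members of lowest GC content, were lower on day 22. Pou2f3 (0.51), Foxi1 (0.61), Ascl3 (0.74), Avil (0.81) and Trpm5 (1.51) were higher on day 22 on the log2 scale. The deviation of each library from the mean of the 9 correlated with GC content at r = 0.31 to 0.47 on day 22, at -0.36 to 0.11 on day 21 and at -0.43 to -0.33 on day 18. This is a description across genes, which are not independent replicates.

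Over the 9 mice, Ascl3 and Foxi1 had the highest correlation of log2 levels among the members (Pearson r = 0.70), ahead of Trpm5 and Avil (0.61). After the mean of each litter was removed, r was 0.16 for Ascl3 and Foxi1 and -0.64 for Trpm5 and Avil. The highest value within litters was 0.54, for Avil and Coch. The likeness of Ascl3 and Foxi1 thus lay mostly between litters that share age and library composition. Negative values of a size like their 0.70 were found between Trpm5 and Coch (r = -0.76, and -0.21 within litters) and between Cftr and Foxi1 (r = -0.69, and -0.56 within litters), which differ in GC content. The 250 bases before the annotated start of Ascl3 and Foxi1 are shown because their r over the 9 mice was the highest, though not within litters. They come from RefSeq on mm10 (GRCm38.p6, minus strand, 5′ to 3′), from chr7:109731733-109731982 and chr11:34208090-34208339, and capitals mark the E-box CANNTG, the core bound by bHLH factors such as Ascl3.
Ascl3: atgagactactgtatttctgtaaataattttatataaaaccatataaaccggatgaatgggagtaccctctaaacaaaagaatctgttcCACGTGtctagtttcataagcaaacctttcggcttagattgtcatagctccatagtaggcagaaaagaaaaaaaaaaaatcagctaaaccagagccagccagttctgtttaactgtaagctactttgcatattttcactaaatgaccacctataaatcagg
Foxi1: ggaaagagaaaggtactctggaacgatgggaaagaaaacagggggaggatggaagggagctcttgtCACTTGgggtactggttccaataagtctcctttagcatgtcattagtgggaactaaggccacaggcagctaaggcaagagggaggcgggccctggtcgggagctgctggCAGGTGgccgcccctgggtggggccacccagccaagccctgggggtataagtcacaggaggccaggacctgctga

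The E-box letters occurred in the upstream windows of 4 of the 8 members with an entry (Ascl3, Foxi1, Gnat3 and Chat) and in 66.2% of 32851 mouse promoter windows searched on both strands. The octamer ATGCAAAT, the motif of POU factors such as Pou2f3, was in 1.60% of all windows, and the forkhead motif TGTTTAC in 3.17%. Neither was in the window of any of the 8 members. Pou2f3 had no entry.

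The genes whose log2 levels were most like each member's over the 9 mice stood on none of the marker lists. They were Nrn1l (r = 0.94), Armc2 and Twsg1 for Pou2f3, Nf1 (r = 0.98), Tacc1 and Zcchc7 for Trpm5, and Gm19710 (r = 0.96), Thsd4 and Gfpt2 for Avil. Ascl3 was most like Rplp2 (r = 0.97) and Chd5, and Foxi1 most like Galns (r = 0.95), Plekhs1 and Tril. Cftr was most like Tnmd (r = 0.98), Trpm7 and Rab5b, and Coch most like Ddah1 (r = 0.98), 1700020I14Rik and Gm1976. These genes were picked for the highest r among 14930 genes over 9 points, so high values were bound to appear, and the marker lists are short. All 9 points share litter and library composition. With the mean of each litter removed, r with the member was 0.81 to 0.98.

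Other genes known from the same cells were taken as lists. In a bulk precipitate their reads can come from other cells too, and the cell of origin was not measured. Of 26 other tuft-like genes, 25 had a row, 17 were tested, and 3 were at 0 in all 9 mice (Slc18a3, Slc5a7 and Hmx3, genes of acetylcholine handling and a homeobox factor). At 100% heptanal against control 1 of the 17 was called, Gng13, and the median of the list was 0.03. Gng13 encodes a G protein gamma subunit of taste and tuft cells that mature OSNs also contain. It was measured at 100.8, 49.96 and 43.2 CPM in the controls of days 22, 21 and 18, at 163, 76.3 and 71.6 CPM after 1%, and at 374, 105 and 100.0 CPM after 100% heptanal. Every litter was ordered control, 1%, 100%, and the share of all genes in that order was not counted.

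The log2 fold change of Gng13 at 100% against control was 1.41 (SE 0.19, adjusted p = 0.0230), beside 1.11 (SE 0.16, adjusted p = 0.0311) for Omp, the marker of mature OSNs. Both calls were lost when any 1 control or any 1 mouse given 100% heptanal was left out (adjusted p 0.0589 to 0.275 for Gng13 and 0.0898 to 0.305 for Omp), and in the fit without the replicate block (1.00 and 0.774). When libraries were scaled to OSN genes, Gng13 was at 0.37 (adjusted p = 0.174). At 1% heptanal it was at 0.68 (adjusted p = 1.00).

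Among the other abundant tuft-like genes none was called with heptanal. These were the kinase gene Dclk1 (42.0 CPM over the 9 mice), the actin bundler Espn (13.8), the prostaglandin synthase Ptgs1 (8.69), the leukotriene pathway gene Alox5ap (6.77) and the kinase gene Bmx (5.17). Between litters 3 of the 17 were called (17.6%, beside 27.0% of all genes tested): Gng13, Dclk1 and Alox5ap. With the GC correction these 3 remained called (adjusted p 0.0037 to 0.030).

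Of 14 other ionocyte-like genes, 12 were tested and 0 were called at 100% heptanal against control, with a median log2 fold change of -0.12. The most abundant were the sodium-potassium-chloride cotransporter Slc12a2 (153 CPM), the proton pump subunits Atp6v1c2 (68.3) and Atp6v0d2 (12.9), the transcription factor Tfcp2l1 (38.8), Hepacam2 (9.02) and the receptor P2ry14 (9.003). Between litters 5 of the 12 were called (41.7%, beside 27.0% of all genes tested): Slc12a2, Atp6v0d2, Hepacam2, Moxd1 and Stap1. With the GC correction Atp6v0d2 (adjusted p = 0.057) and Stap1 (0.060) were no longer called. That left 3 of the 12 (25.0%), beside 29.1% of all genes of known GC content. Slc12a2, of 44.2% GC, was measured at 6.03 to 17.2 CPM on day 22, at 279, 77.2 and 244 CPM in the control, 1% and 100% mice of day 21, and at 195 to 277 CPM on day 18.

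Of the 2 other microvillous genes, the calcium release channel Itpr3 averaged 37.2 CPM and the neuropeptide gene Npy 4.72 CPM. Neither was called with heptanal. Their log2 fold changes at 100% against control lay between -0.65 and -0.50, and Itpr3 was called between litters, with the GC correction too (adjusted p = 0.0026).

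**Figure D5:**
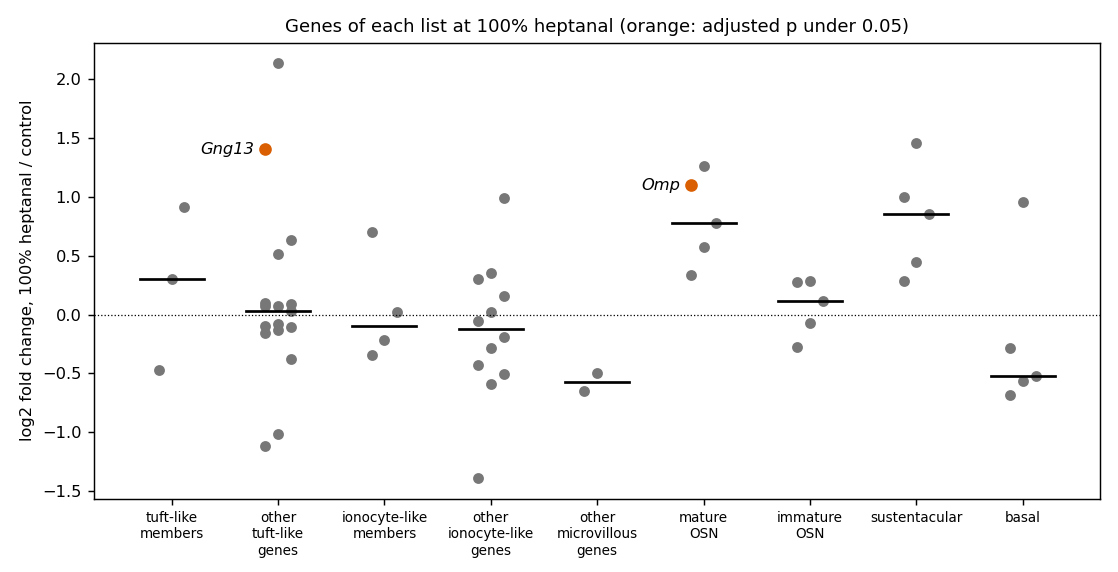
Log2 fold changes at 100% heptanal against control of the tested genes of each marker list (points, orange where the adjusted p was under 0.05) with the list's median (bars). Gng13 and Omp were the called genes on these lists, and medians were 0.78 for mature OSN and 0.86 for sustentacular genes against 0.03 for other tuft-like and -0.12 for other ionocyte-like genes. Scaling to mature OSN genes lowers all values together.

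On the lists of other cell types in the plot of marker lists, the mature OSN genes had a median log2 fold change of 0.78 at 100% heptanal (1 of 5 called) and the sustentacular genes one of 0.86 (0 of 5 called). Medians were -0.75 for red blood cell genes (6 symbols with 3 distinct sets of counts), -0.52 for basal genes and -0.46 for Bowman gland genes, with 0 called on these 3 lists. Their part in the Pou2f3 difference was not tested. The ionocyte-like members had summed levels of 173 to 202 CPM in controls and 138 to 217 CPM at 100% heptanal. The tuft-like members summed to 8.20 to 16.5 CPM in controls and 14.7 to 29.0 CPM at 100% heptanal, of which Pou2f3 made up most. The share of each cell type in the precipitate was not measured.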

How the data were processed

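OE RNA of 9 mice, precipitated with a pS6 antibody, had been primed at the poly-A tail, amplified by PCR and made into Nextera libraries. Per the methods, Bowtie placed the reads on mm10 and BEDTools assigned them to genes, with ambiguous reads shared out by a rescue step. Tool versions were not given in the sources used here. The deposited tables have 21 columns without a header. Column 21 as deposited by the authors was taken as the estimated count after rescue, and was rounded. Column 2 as deposited was taken as the count of uniquely mapped reads, an alternative.

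Genes were filtered (filterByExpr, minimum count 10), normalised by TMM and fitted in edgeR 4.0.16 (R 4.3.3) by quasi-likelihood with group and postnatal day, over all 9 mice and 14930 genes. Benjamini-Hochberg adjusted p under 0.05 was called. Mice of the same day mostly deviated together (mean r 0.51, lowest 0.14, 9 pairs), and the methods give them as littermates. For mice of different days the mean r was -0.24 and the highest 0.44 (18 pairs). The 1% mouse of day 21 was least like its litter (r = 0.24 with the control and 0.14 with the 100% mouse). DESeq2 1.42.0 was an alternative. Exon lengths and GC came from RefSeq on mm10 and covered 93.2% of genes tested. The fits were tested on simulated data. The members and marker lists were chosen with earlier results of these data known. Named were all members, list genes called with heptanal, up to 6 most abundant genes per list of the same cells and the 3 genes most like each member, of which 1 is not reported here. Leaving out day 22 and the GC correction were chosen after seeing the data.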

Additional observations from a re-analysis of the deposited data

How the results depend on the processing

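No member was called in any heptanal comparison under any alternative other than scaling to mature OSN genes, which called 3 members at 100% against control and 3 at 100% against 1% heptanal, with 48 genes higher and 9694 lower in the first (main 48 and 0) and 78 higher and 6613 lower in the second (main 12 and 0). Genes called at 100% against control (main 48) numbered 2 without the replicate block, 266 by DESeq2, 297 by the likelihood ratio test, 28 on library totals, 9742 with OSN scaling, 76 without the low-count filter, 8 without day 22, and with 1 mouse left out 1 (the control of day 22) to 16 without a control or 100% mouse and 39 to 65 without a 1% mouse. At 100% against 1% (main 12) they numbered 2, 211, 226, 6691 with OSN scaling, 25 without the filter, 4 without day 22 and 3 to 11 with 1 mouse left out, or 33 without the 1% mouse of day 18. At 1% against control (main 0) DESeq2 called 3, the likelihood ratio test 14, the fit without a filter 1, and leaving out 1 mouse 0. Between litters (main 4038), OSN scaling called 7183, the fit without day 22 called 142, and leaving out 1 mouse called 1534 to 3746. Members called between litters (main 2) numbered 3 by DESeq2, with OSN scaling and without the low-count filter (Ascl3 added in each), 5 by the likelihood ratio test, 1 with the GC correction, 0 without day 22 and 0 to 2 with 1 mouse left out.

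Signs turned only for differences that were not called, except Coch at 100% against control under OSN scaling. OSN scaling shifts all genes together (median -0.26 at 1% and -1.04 at 100% against control), so its sign changes follow from the shift: relative to that median, each member turned by it kept its sign (Coch 0.026 at 100%). At 1% against control these were Ascl3 without the replicate block (-0.036), Trpm5 (-0.056), Pou2f3 (-0.11), Ascl3 (-0.17) and Coch (-0.068) with OSN scaling, Pou2f3 (-0.10), Cftr (0.14) and Coch (-0.057) without day 22, and Cftr with the GC correction (0.061). At 100% against control they were Coch without the replicate block (-0.0090), Pou2f3 (-0.11), Avil (-0.71), Cftr (-0.31) and Coch (-1.01) with OSN scaling, Cftr (-0.11) and Coch (-0.17) without day 22, and Coch with the GC correction (-0.050). At 100% against 1% they were Gng13 with OSN scaling (-0.058), Avil (0.36) and Cftr (-0.25) without day 22, and Avil with the GC correction (0.034).

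With 1 mouse left out, log2 fold changes at 1% against control ranged from -0.27 to 0.29 for Ascl3, -0.032 to 0.67 for Avil, -1.02 to 0.40 for Cftr, -0.031 to 0.37 for Coch, -0.11 to 0.38 for Pou2f3 and -0.072 to 0.40 for Trpm5. At 100% against control they ranged from -0.46 to 0.077 for Ascl3, -0.12 to 0.52 for Avil, -0.41 to 1.42 for Cftr, -0.17 to 0.22 for Coch and 0.68 to 1.17 for Pou2f3, and at 100% against 1% from -0.54 to 0.030 for Ascl3 and -0.42 to 0.34 for Avil. The cause of each change was not tested. With few counts, Trpm5, Cftr, Avil and Chat allow no small difference to be seen, and Trpm5 could not be tested without day 22.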
